A study of Mus musculus and Homo sapiens with 12 samples.

Results

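L1M elements are the oldest layer of long interspersed nuclear element 1 (LINE-1 or L1) insertions in the human genome. They were examined here as rows of a table of human repeat elements in which the family was L1 and the subfamily name began with L1M. The rule gave 423147 elements in 88 subfamilies, which were 72.1% of the 586490 L1 elements and 10.8% of the 3919868 elements in the hg38 table. The letter after L1M divided them into L1MA (58322 elements), L1MB (52261), L1MC (67027), L1MD (21223) and L1ME (149500), and 74814 elements had names with no group letter, such as L1M5. The rule used names only and no measured value. The libraries held chromatin-associated RNA (caRNA, the fraction of nuclear RNA that sediments with chromatin) precipitated with an antibody against 5-methylcytosine (m5C) and sequenced (methylated RNA immunoprecipitation, meRIP). They came from K-562 cells, a chronic myeloid leukaemia line with erythroid features, as wild type (WT, n = 3) and as TET2 knockout (KO, n = 3). TET2 oxidises 5-methylcytosine in DNA and RNA, and the comparison asks which repeat RNAs differ in the m5C-bound fraction when it is lost. The KO cells had been made elsewhere and obtained as a gift, the sources used here do not say whether they are 1 clone, and a cell-line field of their labels reads K563 where the titles read K562.

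L1 copies itself through an RNA intermediate that is reverse transcribed at the insertion site, usually incompletely, so that most copies keep only the 3′ part. L1MA to L1ME are ordered by age, with L1MA closest to the primate-specific L1P lineage and L1ME the oldest, and all have lost the ability to move. Over time their methylated CG dinucleotides have decayed to TG or CA, younger repeats have inserted into them, and many are transcribed as part of the genes they lie in. L1HS and L1PA2 to L1PA5 are the youngest human L1 subfamilies and served as the comparison within the family.

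The element with the highest mean count in L1MB, in L1ME and among names with no group letter is shown as an example. These copies were chosen by their counts and are not typical of their groups. For each, the first 200 bases are given of its longest stretch outside other annotated repeats and exons, from hg38, 5′ to 3′ on the strand of the element, with CG dinucleotides in capitals. The L1MB3 stretch was chr12:124839986-124840185 (minus strand, in an intron of SCARB1, a receptor for high-density lipoprotein), the L1ME3G stretch chr2:65340330-65340529 (minus, intron of SPRED2, an inhibitor of Ras signalling) and the L1M3de stretch chr2:97261264-97261463 (plus, intron of ANKRD36).
L1MB3 (L1MB): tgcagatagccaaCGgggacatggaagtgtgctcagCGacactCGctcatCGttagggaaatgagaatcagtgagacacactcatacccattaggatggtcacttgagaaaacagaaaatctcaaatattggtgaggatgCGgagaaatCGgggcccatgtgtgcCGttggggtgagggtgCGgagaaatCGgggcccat
L1ME3G (L1ME): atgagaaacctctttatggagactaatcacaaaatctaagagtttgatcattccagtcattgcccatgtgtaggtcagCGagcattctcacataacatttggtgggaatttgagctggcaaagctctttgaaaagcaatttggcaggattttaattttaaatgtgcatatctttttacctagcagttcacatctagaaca
L1M3de (no letter): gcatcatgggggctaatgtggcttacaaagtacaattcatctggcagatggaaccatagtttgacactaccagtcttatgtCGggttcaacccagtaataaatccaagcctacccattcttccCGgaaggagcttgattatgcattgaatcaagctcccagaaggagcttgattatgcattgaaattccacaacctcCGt

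The stretches held 9 CG dinucleotides in L1MB3, 1 in L1ME3G and 3 in L1M3de. G and C made up 51.5% of the L1MB3 stretch, 37.0% of the L1ME3G stretch and 44.5% of the L1M3de stretch. Among all L1M elements that overlapped no other repeat, G and C made up 34.0% of the bases in their spans, and C alone 15.6% on the element strand. CG dinucleotides came at 4.96 per kb, 0.173 of the number that C and G content would give. L1HS to L1PA5 had 40.9% G and C, 21.1% C and 9.14 CG per kb (observed over expected 0.219). L1M copies of this kind thus offered fewer cytosines per base than the young copies, and 33.0% of them had no CG at all, against 5.73% in L1HS to L1PA5. Within L1M, CG dinucleotides ranged from 4.28 per kb in L1MA to 6.33 in L1MB, so the order did not follow age. The median span of an L1M element was 508 bp, and 44.2% of the summed span of 549 Mb lay in other annotated elements.

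Total counts over the DNA, LINE, LTR and SINE classes were 498145 to 649905 in the WT and 715023 to 827341 in the KO libraries, so the KO libraries were deeper. L1M elements held 75477 to 100527 of these counts in WT compared with 109489 to 119912 in KO. Counts were found in 47297 L1M elements (11.2%), and in a single library they were found in 12592 to 15603 elements in WT against 15422 to 17827 in KO. Of the elements with counts, 58.2% had them in 1 library only and 2381 had them in all 6. Among the 2027 L1M elements with at least 50 counts in total, which carried 75.7% of all L1M counts, 46.7% drew at least 90% of their reads from a single library. Single L1M loci were thus often counted in 1 replicate of a group only, and the group sums below rest on many of them: the 10 highest elements held 6.81% and the 1000 highest 62.2% of L1M counts. No input libraries were analysed here, so RNA abundance and m5C enrichment cannot be told apart, and neither can more transcripts per cell and more cells with the transcript.

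L1M elements took a similar part of the repeat counts in both genotypes. Their share of all repeat counts was 15.5%, 15.2% and 15.0% in the WT libraries against 14.6%, 15.5% and 13.2% in KO. The means were 15.2% ± 0.253 (SD, n = 3) and 14.4% ± 1.12 (n = 3), a log2 ratio of KO over WT of -0.07 that did not pass the exact permutation test (two-sided p = 0.3, adjusted p = 1 over 7 shares). With 3 libraries against 3 this test cannot give a p below 0.1. L1ME, the oldest group, held the most counts and was the only one of the 6 groups whose genotypes did not overlap. Its share was 5.65%, 5.06% and 5.42% in WT against 4.62%, 4.78% and 3.97% in KO. This gave a log2 ratio of -0.27 at the smallest p that the permutation test allows (exact p = 0.1, adjusted p = 0.7). L1MA had 1.29%, 1.58% and 1.86% in WT against 1.73%, 1.79% and 1.66% in KO (log2 ratio 0.13, exact p = 0.5). The log2 ratios were -0.05 for L1MB, 0.03 for L1MC, -0.03 for L1MD and 0.03 for elements with no group letter, with overlapping genotypes in each and exact p of 0.8 or 1.

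These shares depend on what else was counted. The 3 FordPrefect elements, copies of a DNA transposon near ribosomal DNA, held 7.21%, 9.53% and 9.84% of the counts in WT compared with 23.0%, 23.6% and 23.4% in KO, and they lower the share of everything else in KO. Without them the L1M share was 16.7%, 16.7% and 16.6% in WT against 19.0%, 20.3% and 17.3% in KO, so that KO was higher in every library (log2 ratio 0.18, exact permutation p = 0.1), and the L1ME ratio was -0.02. Without the 10 highest elements of any family the L1ME ratio was 0.035. The lower L1ME share is thus relative to those elements. The edgeR log2 change of the L1ME total, which is scaled otherwise, was -0.44 without FordPrefect (adjusted p = 0.175). Without the 10 highest elements it was -0.35 (adjusted p = 0.271 in edgeR).

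Within the L1 family the balance between old and young elements differed. L1M made up 34.9%, 36.9% and 33.0% of L1 counts in the WT libraries against 45.4%, 47.4% and 42.0% in KO. No KO library overlapped WT, and the means of 34.9% ± 1.97 and 44.9% ± 2.73 (SD, n = 3 each) differed by a log2 ratio of 0.36 (exact permutation p = 0.1, which is the minimum for this design). Over the same libraries L1HS to L1PA5 went from 50.1%, 48.0% and 51.1% to 32.3%, 34.7% and 39.0% of L1 counts. In shares of all repeat counts, L1HS to L1PA5 were at 21.7% ± 1.78 in WT against 11.3% ± 0.958 in KO (log2 ratio -0.94, exact p = 0.1), whereas L1M was nearly level, so within these shares the shift in L1 came with a lower young share. These shares and the densities that follow count the 3 FordPrefect elements in the total. Without them the L1M share was higher in every KO library (log2 ratio 0.18, exact permutation p = 0.1). In counts scaled by the library total (CPM) and divided by annotated length, L1M held 277 ± 4.61 CPM per Mb in WT and 263 ± 20.5 in KO, and L1HS to L1PA5 held 3040 ± 250 and 1590 ± 134.

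The change of each group against L1HS to L1PA5 was tested directly as the log2 ratio of both count sums in a library. L1MA stood at -4.11, -3.64 and -3.64 in WT and at -2.59, -2.66 and -2.89 in KO, a difference of 1.09 and the largest of the 6 groups. The differences were 0.89 for L1MB, 0.97 for L1MC, 0.66 for L1ME and 0.95 for elements with no group letter. All of these separated the genotypes completely (exact permutation p = 0.1 each, adjusted p = 0.217 over 13 contrasts). L1MD, the smallest group, had a difference of 0.85 with overlapping genotypes, since KO library 3 lay at -4.23 beside WT values of -4.47 to -4.19 (exact p = 0.2, adjusted p = 0.371). Without KO library 1 the L1MD difference was 0.54. Against the older primate L1PA and L1PB subfamilies no group separated the genotypes, with differences from -0.20 for L1ME to 0.22 for L1MA and exact p from 0.3 to 1. The log2 ratio of the youngest to the oldest group, L1MA to L1ME, was -2.13, -1.68 and -1.54 in WT and -1.42, -1.41 and -1.26 in KO. These values did not overlap, with a difference of 0.42 (exact permutation p = 0.1, adjusted p = 0.217). Without 1 library this difference ranged from 0.25 to 0.54.

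**Figure D1:**
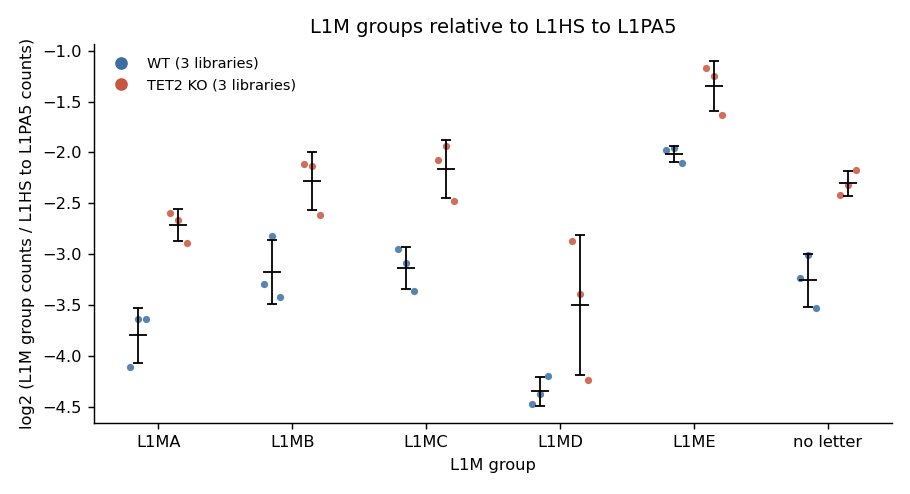
Log2 ratio of the counts of each L1M group to the counts of L1HS to L1PA5 in the same library (points; bars, mean ± SD of 3 libraries). All groups except L1MD have all 3 KO libraries above all 3 WT libraries.

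Among single subfamilies, tested with edgeR over all subfamilies of the 4 classes, 84 of the 88 L1M subfamilies had enough counts and 0 were called at an adjusted p under 0.05, where 1.05% of all 573 tested subfamilies were called. At an unadjusted p under 0.05 there were 5 L1M subfamilies, where 13.8% of all tested subfamilies were. The genotypes did not overlap in 10 of the 84 (11.9%, against 16.9% of all tested). Of these 4 were higher in KO, where 10.3% of all tested subfamilies were, and 6 lower, where 6.63% were. The median log2 change was -0.15 with 32 of 84 above 0, beside a median of 0.026 over all tested subfamilies, 50.8% of which were above 0. The DESeq2 Wald test called 5 L1M subfamilies (13 at an unadjusted p under 0.05) where it called 10.6% of all: L1ME3G and L1M2b were lower in KO and L1M2c, L1M3de and L1MC1 higher. All changes below are edgeR log2 changes of KO over WT, and levels are CPM after TMM scaling. The standard error (SE) printed with a change was computed as its absolute value divided by the square root of the test's F statistic.

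L1ME3G, the L1ME subfamily with the highest mean count, had 9340, 6170 and 15200 CPM in WT against 3440, 4590 and 3270 CPM in KO. Every KO library lay below every WT library. Its log2 change was -1.44 ± 0.379 (SE), with an unadjusted p of 0.00421 and an adjusted p of 0.152 in edgeR. Without the 10 highest L1M elements, which include 3 L1ME3G copies, it was -0.90 (adjusted p = 0.539), and without WT library 3 it was -1.03. It held 0.957%, 0.595% and 1.32% of all repeat counts in WT compared with 0.363%, 0.477% and 0.325% in KO. The rest of L1ME without it went from 4.69%, 4.46% and 4.09% to 4.26%, 4.30% and 3.65%, which overlap (log2 ratio -0.12, exact permutation p = 0.3). Without L1ME3G the L1ME group thus no longer separated the genotypes, and leaving out other L1ME subfamilies in this way was not tested. The highest L1ME3G element alone held 34.6% of the counts of its subfamily. The L1ME total itself had a log2 change of -0.44 ± 0.121 (unadjusted p = 0.00545, adjusted p = 0.162 in edgeR), where 1.21% of the rows of that table were called, and the other 5 group totals ranged from -0.22 (L1MD) to -0.05 (L1MA) with adjusted p from 0.566 to 0.927. Of 26 tested L1ME subfamilies 7 were above 0, with a median of -0.35. L1ME5 (-2.08 ± 1.16) and L1MEh (-1.67 ± 0.923) had the most negative changes in the group, at adjusted p of 0.427 and 0.419. The L1ME5 change was -1.15 without WT library 2 and -3.12 without KO library 1.

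Subfamilies with no group letter spanned the widest range. The genotypes did not overlap in 5 of the 22 tested, where 16.9% of all tested subfamilies did not. Of these 2 were higher in KO and 3 lower. L1M3de had 185, 210 and 518 CPM in WT against 926, 1480 and 2360 CPM in KO, with no overlap (log2 change 2.37 ± 0.834, adjusted p = 0.281 in edgeR). Its highest element, the copy in ANKRD36, held 33.5% of its counts, with 356.33, 4.45 and 1082.28 in the KO libraries. L1M2c had 19.5, 75.0 and 41.0 CPM in WT against 285, 249 and 367 CPM in KO (2.66 ± 0.981, adjusted p = 0.291). Both were low in WT and higher in every KO library. L1M8 (2.43 ± 1.22) and L1M4b (1.68 ± 0.841) also had positive changes but overlapping libraries, and KO library 3 alone gave L1M8 727.76 counts where the other 5 had 26.39 to 102.27. Without that library the L1M8 change was 0.46, and without WT library 3 that of L1M4b was 2.59. On the other side L1M2b (-1.85 ± 0.669, mean count 22.1), L1M3e (-1.17 ± 0.824) and L1M1 (-0.81 ± 0.404) had every KO library below every WT library. Their adjusted p in edgeR were 0.285, 0.546 and 0.399. L1M4a1 (-1.62 ± 1.09) and L1M2a (-1.43 ± 0.989) overlapped between genotypes. L1M4a1 owed its sign to WT library 2, without which the change was 0.33, while L1M2a was at -0.64 without WT library 3. L1M5, the subfamily of this set with the highest mean count and 30903 copies, changed by 0.31 ± 0.363 (adjusted p = 0.736).

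In L1MC, L1MB, L1MD and L1MA the subfamilies with the most counts had changes near 0. L1MC1 had 1640, 1290 and 1340 CPM in WT against 3210, 2760 and 4640 CPM in KO, separated by genotype (1.31 ± 0.476, unadjusted p = 0.0224, adjusted p = 0.285 in edgeR). Its highest element held 16.9% of its counts. L1MC4, the L1M subfamily with the highest mean count, changed by -0.07 ± 0.313. L1MB8 (0.27 ± 0.366), L1MDa (-0.18 ± 0.540) and L1MA3 (-0.06 ± 0.516), each the highest of its group, also had changes below their SE. L1MDb (1.60 ± 1.20) had counts of 908.21, 29.89 and 558.37 in KO against 76.21 to 119.18 in WT, so that 1 KO library lay below all of WT, and its change was 0.89 without KO library 1. In L1MA 7 of 12 subfamilies were above 0 (median 0.06), in L1MB 3 of 7 (median -0.03), in L1MC 3 of 11 (median -0.24) and in L1MD 2 of 6 (median -0.25).

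Old elements carry younger ones inside them. L1M elements that held another annotated element were 34.0% of all L1M elements and 77.3% of the L1M span and carried 73.8% of L1M counts, close to their part of the span, whereas in L1HS to L1PA5 such elements carried 4.02% of counts. Elements that overlapped no other repeat were 50.3% of L1M elements and 17.3% of the span and carried 23.2% of counts. Of the 1486 holding elements with at least 50 counts, 311 (20.9%) held an element whose counts equalled theirs within 5% summed over the libraries, as when the same reads are assigned to both. These 311 carried 6.19% of L1M counts, and the matching inner element was most often L1PA2 (84), L1PA3 (55) or L1HS (42). Holding elements made up 77.9%, 77.4% and 73.4% of L1M counts in WT compared with 71.4%, 71.8% and 72.2% in KO, which did not overlap (exact permutation p = 0.1, adjusted p = 0.4 over 12 splits of the L1M counts).

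In elements that overlapped no other repeat, the age groups differed more. The spans of these elements can hold bases beyond the matched consensus. The L1MB4 copy in TYMS, for example, spans 959 bp for consensus bases 5934 to 6179. Counts there need not all come from L1M sequence. The subset of elements without overlap was chosen after the data were seen. L1MA there held 0.248%, 0.202% and 0.149% of all repeat counts in WT compared with 0.452%, 0.441% and 0.491% in KO. The KO libraries were all above WT (log2 ratio 1.21, exact permutation p = 0.1). The edgeR change of the L1MA total in these elements was 0.98 at an adjusted p of 0.294. Over all L1MA elements on reference chromosomes the log2 ratio of the share was 0.0056. In the subset without overlap, the highest of the 1219 L1MA elements with counts held 5.93% of them. Its counts were 0, 0 and 1 in WT against 57.67, 1.6 and 792.2 in KO, most of them in 1 library. The next in order held 5.08%, 3.38%, 3.17% and 2.78%, with most or all of their counts in KO 1, WT 1, KO 2 and KO 1. L1ME there held 0.943%, 1.01% and 1.25% in WT against 1.26%, 1.18% and 0.901% in KO (log2 ratio 0.06, exact p = 0.9), so the genotypes that were apart over all elements overlapped in this subset. L1MB (0.28), L1MC (-0.30), L1MD (0.59) and elements with no group letter (-0.17) overlapped between genotypes. L1M as a whole made up 13.9%, 15.5% and 14.9% of L1 counts in WT compared with 27.9%, 25.0% and 22.2% in KO in this subset, a log2 ratio of 0.76 (exact p = 0.1).

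L1M counts in genes were close to the part of the L1M span that lies there. Introns carried 40.7% of L1M counts and 44.5% of the span, and exons 13.9% and 11.2%, whereas intergenic sequence carried 22.6% of counts and 40.7% of the span. By genotype, introns held 42.2% ± 0.418 of L1M counts in WT compared with 39.5% ± 1.68 in KO (SD, n = 3), exons 14.4% ± 2.61 and 13.5% ± 2.07, and intergenic sequence 21.7% ± 4.04 and 23.2% ± 0.592. Unplaced, random and alternate contigs held 21.7% ± 3.54 and 23.8% ± 3.74, although they carry 3.93% of L1M elements. The intron share did not overlap between genotypes (exact permutation p = 0.1, adjusted p = 0.4), and the other 3 did (exact p from 0.5 to 0.7). The level differed with orientation: elements on the same strand as a protein-coding gene were 14.3% of L1M elements and carried 20.8% of the counts, and elements on the opposite strand were 25.6% and carried 12.9%. Whether counting used the strand is not given in the sources used here. Same-strand elements held 21.6% ± 1.60 of L1M counts in WT compared with 20.1% ± 1.77 in KO (exact p = 0.4).

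At single elements 550 L1M copies had enough counts for edgeR and 0 were called, where 0.0959% of all 3127 tested elements were called. At an unadjusted p under 0.05 there were 34, where 7.48% of all tested elements were. The genotypes did not overlap in 76 (13.8%, against 15.2% of all tested elements). Of these 53 were higher in KO, where 8.76% of all tested elements were, and 23 lower, where 6.46% were. The median log2 change was 0.28 with 59.8% above 0, beside 0.12 and 54.1% over all tested elements; scaled by library totals alone the L1M median was -0.63, so the direction of the median depends on the scaling. The DESeq2 Wald test called 29 L1M elements, where it called 5.56% of all.

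The element with the highest mean count was the L1ME3G copy in an intron of SPRED2, chr2:65337715-65340529. It had 3377.27, 956.12 and 1887 counts in WT compared with 809.4, 691.78 and 1152.78 in KO, which overlap (log2 change -0.90 ± 0.598, adjusted p = 0.773 in edgeR; -0.45 without WT library 1). A Charlie1a DNA transposon fills most of its span (86.3%) but held at most 100.47 counts in a library, so most of the counts were not also listed for it. Another L1ME3G copy, chr2:241910888-241914192 in an intron of the long non-coding RNA LINC01237, had 902, 307 and 1083 counts in WT compared with 9.5, 100.5 and 264 in KO, with every KO library lower (-2.31 ± 1.32, adjusted p = 0.756). Its counterpart on the alternate contig chr2_KI270776v1_alt had 670.5, 286.5 and 666.5 in WT against 20, 357 and 238.25 in KO. How reads were divided within such a pair was not tested.

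Most of the other highest elements lay in introns or exons of protein-coding genes. The L1MB3 copy in SCARB1, chr12:124838738-124840547, had 1911.87, 982.59 and 626.19 counts in WT compared with 2118.17, 1481.58 and 1472.98 in KO (log2 change 0.84 ± 0.615, adjusted p = 0.799; 0.51 without WT library 3), and the 2 AluS copies inside it had 0 counts in every library. The L1MC4 copy chr8:9770654-9773043 lies in an exon of TNKS, a tankyrase that adds poly(ADP-ribose) to proteins, and overlapped no other repeat. It had 891.38, 673.15 and 569.7 counts in WT compared with 560.57, 482.5 and 478.47 in KO (-0.18 ± 0.780). The L1MB4 copy chr18:666763-667721, in an exon of TYMS, which makes thymidylate for DNA synthesis, had 507.17, 237.3 and 538.5 in WT against 164.97, 179.38 and 252.97 in KO. After scaling every KO library was below WT there (-0.76 ± 1.02, adjusted p = 0.902). The L1MD2 copy in EHMT1, a histone H3 lysine methyltransferase (567.68 to 1162.65 in WT, 441.3 to 699.82 in KO), the L1MB2 copy at RILPL1 (154.63 to 571.36 and 122.65 to 776.16) and an L1MB8 copy on an unplaced contig (366.53 to 1497.5 and 536.03 to 1066.68) overlapped between genotypes. The highest L1MA element, the L1MA3 copy in HERC2, an E3 ubiquitin ligase, ranged from 62.9 to 922.1 counts in WT compared with 17.78 to 114.2 in KO.

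Some elements were counted in 1 genotype almost alone. The L1MC1 copy chr8:144742398-144751291 in an intron of the zinc-finger gene ZNF251 is nearly full length against its consensus (bases 17 to 6508) and had 0, 28.75 and 0 counts in WT compared with 562.5, 591.5 and 673.5 in KO. All 3 KO libraries agreed closely, and the log2 change was 5.79 ± 2.38 (unadjusted p = 0.0434, adjusted p = 0.628 in edgeR). It passed the count filter only through the KO libraries, so its fold value and p-value are no test of a genotype difference. The 14 annotated elements inside it had 0 counts in every library. The L1M3de copy in ANKRD36, chr2:97261264-97262576, had 0, 0 and 1 counts in WT compared with 356.33, 4.45 and 1082.28 in KO and was not tested because too few libraries held counts. The L1MC4 copy chr15:30687139-30688756 was 1 of the 3 elements with the most positive fitted change. It was at 0 throughout WT and had 160.5, 75.25 and 242.25 counts in KO. All 3 such elements passed the count filter only through KO and were picked for their fitted change. Their fold values and p-values are therefore no test of a genotype difference. In TMM-scaled CPM the L1MC4 copy was at least 62.1-fold higher, with 3 counts per library as the limit of a count of 0 (adjusted p = 0.202 in edgeR). The TMM factors at element level were 1.37 to 1.46 in WT and 0.668 to 0.78 in KO, which raises such ratios of KO over WT. The L1MB3 copy chr15:28956555-28957671 in APBA2 had 0 in WT against 209.25, 139.25 and 66.5 in KO (at least 58.2-fold higher), and its counterpart on chr15_KI270905v1_alt had 0 and then 179.5, 35.25 and 126 (at least 45.0-fold). In KO libraries 2 and 3 the AluY inside each copy was listed with the same count as the copy itself. In KO library 1 the AluY had 104.75 counts at APBA2 and 113 on the alternate contig, so part of the counts there was not also listed for it.

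The elements with the most negative fitted change were an L1MEg copy in an intron of MYO19, a mitochondrial myosin, and its counterpart on an alternate contig. Both passed the count filter only through WT and were picked for their fitted change, so their values do not test a genotype difference. The MYO19 copy, chr17:36519206-36521109, had 41.75, 85 and 153.75 counts in WT compared with 0 in all KO libraries. In TMM-scaled CPM it was at least 24.9-fold lower (adjusted p = 0.202 in edgeR). The counterpart had 36.75, 86 and 100.5 in WT against 0 in KO, at least 20.2-fold lower. The last of these was the L1ME3Cz copy chr18:37815652-37826579, with 318.55, 68.57 and 20.79 counts in WT compared with 11.9, 10.46 and 11.04 in KO (-3.10 ± 1.37, adjusted p = 0.690), and without WT library 1 the change was -1.73. A full-length L1HS lies inside it and is listed with the same count in every library, so that value is the count of a young L1 listed for an old one.

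L1M names also occur in the mouse table of the series, from mouse embryonic stem cells (mESC) as WT and Tet2 KO with 3 libraries each. There 133579 elements of the 3158171 carried them, rodent L1Md left out, and held 1.07%, 1.11% and 1.16% of repeat counts in WT compared with 1.09%, 1.13% and 1.35% in KO (log2 ratio 0.10, exact permutation p = 0.6). The L1ME share was 0.117%, 0.107% and 0.119% in mESC WT and 0.148%, 0.134% and 0.180% in mESC Tet2 KO, higher in every KO library (log2 ratio 0.43, exact permutation p = 0.1, adjusted p = 0.35).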

How the data were processed

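Per the labels and the study's methods, the authors used Trimmomatic 0.39 for trimming, HISAT2 for alignment to hg38 or mm10 with transcriptome and spike-in sequences, Picard for duplicates and featureCounts for counting over repeat elements. The resulting estimated counts, 1 per element and library, are what was deposited. They are fractional: 22.6% of non-zero L1M values were whole, 50.4% were below 1 and the smallest was 0.03, and the options that made them so are not given in the sources used here. Total counts over 4 classes, the depth, were 498145 to 827341 per K-562 library.

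Here counts were summed per subfamily, or per L1M group, rounded, and tested with edgeR 4.0.16 (filterByExpr, TMM, quasi-likelihood test, prior count 2, Benjamini-Hochberg over all rows; a call is an adjusted p under 0.05). Single elements were tested likewise, and DESeq2 1.42.0, other scalings and filters, a replicate block and leaving out each library were alternatives. Shares were compared by two-sided exact permutation tests over libraries, smallest p 0.1. Overlap was at least 10 bp, by bedtools 2.31.1. Gene context came from GENCODE release 44, not the release the authors named. Software was R 4.3.3, Python 3.11.15 and pandas 2.3.3. Named subfamilies were the highest of each group and the 5 with the most positive and most negative log2 change at a mean of at least 50 counts. L1MC1, L1M1, L1M2b and L1M3e, named beside these, had genotypes that did not overlap. Named elements were the 10 highest, the highest of each group and 3 in each direction. Members, lists and tests were chosen with earlier results of these data known. Replicates carry numbers only in the labels, and the paper describes its genome-wide data as drawn from 3 biological replicates. How separately these were grown is not given in the sources used here. The p-values measure the spread between these libraries. The models were tested on simulated data. Some sequences are not reported here.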

Additional observations from a re-analysis of the deposited data

Results flagged for a closer look

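The L1ME share of repeat counts differed between genotypes in opposite directions in the human and the mouse line. The log2 ratio of KO over WT was -0.27 in K-562 and 0.43 in mESC, a difference of -0.7. Permuting genotypes within each line over 400 assignments gave p = 0.005, the smallest this permutation test can give, and an adjusted p of 0.035 over 7 shares. The share was lower in 3 of 3 K-562 KO libraries, and in mESC it was higher in 3 of 3, each time beyond the whole range of WT. L1ME held 5.37% of the counts in K-562 WT and 0.114% in mESC WT, and removing the 10 highest elements of K-562 gave a ratio of 0.035 there, removing FordPrefect -0.02.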

How the results depend on the processing

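Leaving out each library in turn kept the number of called L1M subfamilies and elements at 0, and so did the other edgeR alternatives, whereas the DESeq2 Wald test called 5 subfamilies and 29 elements and put the L1ME total past the threshold (-0.51, adjusted p = 0.0477; over all alternatives the adjusted p ranged from 0.0477 to 0.71). Replicate numbers did not pair the libraries (correlations of deviations -0.0444, 0.0528 and -0.082 for numbers 1, 2 and 3). With the replicate block 0 L1M subfamilies and 0 elements were called, and L1MA3 turned to 0.029. The L1M share of L1 counts stayed between 0.32 and 0.76 (log2 ratio) and the contrasts with L1HS to L1PA5 between 0.54 and 2.18 in every alternative run.

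Group totals (edgeR log2 change) turned for L1MA with library totals and in elements of at least 10 counts (0.14 each) and in elements that overlap no other (0.98), for L1MC with library totals (0.036) and at least 10 counts (0.032), for L1MD without overlap (0.18) and for names with no letter with library totals (0.03) and at least 10 counts (0.035). Without 1 library they ranged from -0.21 to 0.24 for L1MA, -0.41 to 0.063 for L1MD and -0.29 to 0.051 with no letter.

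Shares of repeat counts (log2 ratio) turned without the 10 highest elements for L1MB (0.19), L1MD (0.21), L1ME (0.035) and all L1M (0.19), without the FordPrefect elements for L1MB (0.2), L1MD (0.22) and all L1M (0.18), without the 10 highest L1M elements for L1MD (0.06), at 10 counts for no letter (-0.003), without overlap for L1MB (0.16), L1MC (-0.43), L1MD (0.49), no letter (-0.3) and all L1M (0.0099), and on reference chromosomes for L1MB (0.0095) and L1MC (-0.04). Here the shares without overlap were taken over the counts of all elements without overlap, not over all repeat counts as in the Results. Without 1 library the shares of repeat counts ranged from -0.12 to 0.074 for L1MB, -0.092 to 0.15 for L1MC, -0.31 to 0.22 for L1MD and -0.11 to 0.14 with no letter, and in mESC from -0.09 to 0.094 with no letter and -0.0021 to 0.15 for all L1M.

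Contrasts with older L1PA and L1PB turned without overlap for L1MC (-0.069), L1MD (1.06), L1ME (0.27) and no letter (-0.027), and for L1MD without the 10 highest elements (0.021) or L1M elements (0.07). Without 1 library they ranged from -0.16 to 0.19 for L1MB, -0.12 to 0.24 for L1MC, -0.18 to 0.28 for L1MD and -0.081 to 0.33 with no letter.

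Among subfamilies, library totals turned L1MA3 (0.089) and L1MC4 (0.036), at least 10 counts L1MA3 (0.046) and L1MC4 (0.02), removal of the 10 highest L1M elements L1MC4 (0.078), and elements without overlap L1MA3 (2.22), L1MDa (3.2), L1M5 (-0.28), L1M8 (-0.55) and L1M4a1 (0.069). Without 1 library L1MA3 ranged from -0.42 to 0.29, L1MB8 from -0.005 to 0.56, L1MC4 from -0.23 to 0.11, L1MDa from -0.44 to 0.2, L1M4a1 from -2.13 to 0.33, and the elements on the unplaced contig from -0.12 to 0.86, in EHMT1 from -0.41 to 0.054 and in TNKS from -0.36 to 0.0089. Library totals turned the elements in SCARB1 (-0.14), at RILPL1 (-0.27) and L1MB8 on the unplaced contig (-0.71). The cause was not tested in any of these. The settings without overlap, on reference chromosomes and without L1ME3G were chosen after seeing the data. Restricting to rows that name 1 subfamily was not run because every row names 1. In simulated counts edgeR recovered 5% of 200 subfamilies changed by a log2 of 2 among 547 tested and 0% of 200 elements among 2619, so a count of 0 calls at this depth says little about changes of that size.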
